A study of Homo sapiens with 14 samples.

Results

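AP-1 is a family of transcription factors, and its 8 members followed here were FOS, FOSB, FOSL1, FOSL2, JUN, JUNB, JUND and ATF3. They were taken by symbol from a table of RNA-seq counts, in which each symbol had 1 of 59250 rows. In the gastric cancer line NUGC4, cells with an ARID1A knockout were compared with wild-type parental cells, and cells with CRISPR interference (CRISPRi) against ARID1A with cells that carried the CRISPRi vector. In the liver cancer line HepG2, cells overexpressing CTNNB1 were compared with an empty vector control. ARID1A encodes a DNA-binding subunit of the BAF chromatin remodelling complex, and CTNNB1 encodes beta-catenin, the transcriptional effector of Wnt signalling.

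The groups held 4 wild-type libraries, 2 libraries labelled ARID1A knockout, 1 CRISPRi vector library and 2 libraries of the ARID1A knockdown through 1 guide RNA (sgRNA1), all from NUGC4. The labels list 2 CRISPRi vector samples, of which 1 was matched to a column of counts and the second was not analysed here. The comparisons with the vector therefore rest on 1 library. A column whose name matched no sample was not used, and whether it holds that second sample is not known. HepG2 gave 2 empty vector and 2 CTNNB1 overexpression libraries. The knockout cells were single-cell clones made with CRISPR-Cas9, and the labels do not say which clone gave which library. The repressor fusion and the guide sequence of the CRISPRi cells are not described in the labels. The CTNNB1 construct lacked exon 3, which encodes the degradation signal of beta-catenin, carried FLAG and GFP, and was driven by the EF1α promoter from a lentivirus. The labels name no separate cultures for the libraries of a group, so the p-values measure the spread between these libraries, which may be technical. The vector group and the knockout group of the fit held 1 library each, for which the spread was borrowed from the replicated groups.

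AP-1 factors bind DNA as pairs of proteins joined by a leucine zipper. JUN proteins pair with themselves or with FOS proteins, whereas FOS proteins need a JUN partner, and ATF3 belongs to the related ATF branch and pairs with JUN proteins or with itself. The dimers recognise the TPA response element (TRE) and the cyclic AMP response element (CRE). FOS, FOSB, JUN, JUNB and ATF3 are immediate early genes, whose transcription starts within minutes of growth factor, serum or stress signals that pass through MAP kinases, whereas JUND is transcribed more evenly. In epithelial cancers the family is known for its part in proliferation, invasion and wound-like states.

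The members that fell under ARID1A CRISPRi were FOS, FOSB, JUN, JUNB and ATF3, and their promoters are shown because these 5 moved together. Each line gives the 150 bases before the RefSeq start site (GRCh38.p14), 5′ to 3′ on the strand of the gene, with capitals marking a TGACG or TGACATCA motif on either strand.
FOS, chr14:75278678-75278827, plus strand: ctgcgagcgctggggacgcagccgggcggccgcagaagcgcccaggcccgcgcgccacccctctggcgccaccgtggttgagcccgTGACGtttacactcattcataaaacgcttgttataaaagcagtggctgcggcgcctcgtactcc
FOSB, chr19:45467846-45467995, plus strand: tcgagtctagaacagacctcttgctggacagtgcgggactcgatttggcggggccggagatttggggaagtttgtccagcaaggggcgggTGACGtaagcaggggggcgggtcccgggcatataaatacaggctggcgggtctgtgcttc
JUN, chr1:58784048-58784197, minus strand: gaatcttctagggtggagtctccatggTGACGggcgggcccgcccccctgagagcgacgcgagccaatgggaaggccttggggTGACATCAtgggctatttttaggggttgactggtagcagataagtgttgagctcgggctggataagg
JUNB, chr19:12791336-12791485, plus strand: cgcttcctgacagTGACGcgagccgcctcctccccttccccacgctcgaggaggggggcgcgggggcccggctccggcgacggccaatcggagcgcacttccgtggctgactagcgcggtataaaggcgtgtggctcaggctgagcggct
ATF3, chr1:212565257-212565406, plus strand: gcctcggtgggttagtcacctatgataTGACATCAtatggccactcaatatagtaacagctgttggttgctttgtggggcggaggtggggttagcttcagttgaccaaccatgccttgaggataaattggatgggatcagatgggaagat

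Both JUN and ATF3 held TGACATCA, a variant of the TRE and CRE, at positions -67 to -60 in JUN and -123 to -116 in ATF3, counted from the start site. FOS, FOSB and JUNB each held TGACG, the first letters of the CRE, beginning at position -64 in FOS, -60 in FOSB and -137 in JUNB, and JUN held one at -123. The JUND window held a full TGACGTCA at -200 to -193, farther from the start than the stretches printed, and a TGACG on the other strand at -86 to -82. FOSL2 held TGACG at -66 and, on the other strand, at -201, and a TGANTCA just after its start. TGACATCA occurred in 2.61% of 35116 RefSeq promoter windows that run from 250 bases before to 50 after a start, TGACG in 24.6%, TGANTCA in 7.71% and TGACGTCA in 1.85%. These searches covered both strands, and every TGACGTCA contains TGACG on each strand. The promoter table matched 7 of the 8 members and listed 2 starts for ATF3, of which the upstream one is printed. The window of the other ATF3 start held none of these motifs. FOSL1 was not matched. Counts per gene do not show which start was used.

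Measures of the libraries bear on every comparison between arms. ARID1A was at 103 to 121 CPM (counts scaled to a library total of 1000000) in wild type, 33.5 in knockout replicate 1, 134 in the vector library and 54.9 to 58.7 under sgRNA1. The library labelled knockout replicate 2 had 137 CPM of ARID1A, which goes against its label. For that reason it was kept out of the fits unless stated, and its values are given beside the results. Over all genes with enough counts, the chi-square per degree of freedom was 2.57 between it and the vector library and 278 between it and knockout replicate 1, where pairs of libraries of the other groups gave 2.73 to 20.8. In the 8 members its CPM were 1.02 to 1.18 times those of the vector library. Ribosomal RNA took 6.3 to 11.7% of the counts in the wild-type and knockout replicate 1 libraries and 0.161 to 0.176% in the other 4 NUGC4 libraries. In the same order, mitochondrial genes took 0.832 to 2.5% and 7.96 to 8.23%, and histone genes 0.278 to 0.345% and 0.0157 to 0.019%. The knockout and CRISPRi comparisons each stay within 1 of these 2 kinds of library, and the vector against wild type crosses them. In HepG2, ribosomal RNA took 0.19 to 0.251% and mitochondrial genes 6.13 to 7.35%, closer to the vector and sgRNA1 libraries. Comparisons of HepG2 with wild-type NUGC4 therefore cross the kinds of library as well as the lines. CTNNB1 was at 428 and 430.2 CPM in the HepG2 vector libraries and 1750 and 1821 under overexpression, with the construct's own reads possibly among them. NUGC4 expressed 8 of 8 epithelial, 7 of 10 gastric and 4 of 10 liver markers at 1 CPM or more in a library. HepG2 expressed 6 of 8 epithelial, 0 of 10 gastric and 10 of 10 liver markers. The liver markers summed to 123 to 202 CPM per library in NUGC4 and 35468 to 57717 in HepG2. Fibroblast markers reached 1 CPM for 1 of 7 in each line, and blood cell markers for 2 of 7 in NUGC4 and 3 of 7 in HepG2. The blood cell markers summed to 1257 to 2849 CPM in NUGC4 and 1600 to 2748 in HepG2. Most of this was LYZ, with 16300 to 47163 counts per NUGC4 library and 26821 to 45022 per HepG2 library, whereas PTPRC had at most 4. Total counts were 9167761 to 17668394 per NUGC4 library and 13138681 to 23914120 per HepG2 library. A bulk level cannot tell fewer expressing cells from less RNA per cell.

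Among the FOS genes, the order of levels differed between the lines and between the arms. CPM here are scaled with TMM factors over the 13 libraries, and levels of different genes are compared per kilobase of exon. In wild-type NUGC4, FOSL2 made up 50.2 to 54.8% of the FOS family's CPM per kb and FOS 35.4 to 37.2%. In the vector library FOS led with 59.0% and FOSL2 had 13.1%, and under sgRNA1 FOS had 49.6 to 49.9% and FOSL1 31.1 to 31.3%. In HepG2, FOSL2 made up 74.6 to 76.9% and FOS 1.39 to 1.79%. Knockout replicate 1 stayed near the wild-type order, with 58.7% for FOSL2 and 33.9% for FOS.

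JUN genes were ordered differently again. JUND and JUNB were close in wild-type NUGC4, at 38.6 to 43.5% and 36.8 to 40.6% of the JUN family's CPM per kb. JUNB led with 42.8% in knockout replicate 1, 54.5% in the vector library and 54.6 to 56.1% under sgRNA1. JUND dominated HepG2, at 69.6 to 73.6% with the vector and 81.4 to 81.8% under CTNNB1 overexpression, and JUN held 20.4 to 22.2% with the vector and 12.6 to 12.97% with overexpression. The summed FOS family over the summed JUN family was 0.523 to 0.622 in wild type, 0.719 to 0.747 under sgRNA1 and 0.232 to 0.239 in HepG2. These are shares of RNA and say nothing of protein or of dimers.

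Knockout replicate 1 had higher levels of most members than wild type. FOS, the founding partner of JUN, was at 41.4, 48.7, 46.6 and 42.1 CPM in the 4 wild-type libraries (44.7 ± 3.51, SD, n = 4) and at 80.8 CPM in knockout replicate 1. JUN, the founding member of the JUN genes, was at 42.7, 46.7, 44.3 and 47.3 CPM in wild type (45.2 ± 2.13, SD, n = 4) and at 91.6 CPM in the knockout. FOSL2, which encodes the FOS-related protein FRA2, was at 142, 145, 158 and 139.8 CPM in wild type (146 ± 8.14, SD, n = 4) and at 309 CPM in the knockout. The fitted fold of these 3 genes over the wild-type group was 1.79 to 2.10.

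Tested with edgeR's quasi-likelihood method and adjusted (Benjamini-Hochberg) over 18913 genes, 6 of the 8 members were called higher in knockout replicate 1, where 19.5% of all genes tested were called higher. The log2 fold changes were 1.26 ± 0.23 for FOSB (SE, adjusted p = 0.000323), 1.07 ± 0.10 for FOSL2 (adjusted p = 1.93e-07) and 1.01 ± 0.10 for JUN (adjusted p = 4.49e-07). JUNB rose by 0.91 ± 0.12 (adjusted p = 6.55e-06), FOS by 0.84 ± 0.11 (adjusted p = 9.38e-06) and JUND by 0.52 ± 0.14 (adjusted p = 0.00757). JUNB, which encodes a JUN protein that can restrain JUN, was at 42.9, 52.6, 49.5 and 45.7 CPM in wild type and 90.0 in the knockout. JUND, often linked with slow growth, was at 41.7, 54.6, 56.2 and 55.2 CPM in wild type, where replicate 1 stood below the other 3, and 75.0 in the knockout. FOSB was at 2.68 to 4.24 CPM in wild type and 8.18 in the knockout. JUNB overlaps HOOK2 in the annotation, and HOOK2 was at 34.5 to 41.1 CPM in wild type and 39.7 in this knockout library.

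FOSL1, which encodes FRA1 and is itself a common target of AP-1, was at 4.84 to 8.23 CPM in wild type and 7.52 in knockout replicate 1, inside the wild-type range. ATF3, a stress-induced factor that often represses, was at 11.3 to 14.8 CPM in wild type and 15.8 in the knockout. Their log2 differences were 0.23 ± 0.22 and 0.21 ± 0.17 (SE), with adjusted p = 0.422 and 0.345 by edgeR. No member was called lower, where 18.7% of all genes were; at an unadjusted p under 0.05 the count was also 0, as it was with DESeq2 and with limma-voom. The members' median log2 difference was 0.87, beside -0.07 over all genes tested. With both libraries labelled knockout in the group, 8 of 8 members were called higher (13.5% of all genes higher, 9.78% lower), and the FOS difference became 2.88.

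CRISPRi against ARID1A went the other way for several members. FOS was at 539.9 CPM in the vector library and at 306 and 313 CPM in the 2 sgRNA1 libraries. FOSB, a FOS paralog with an activating full-length form, was at 65.7 CPM in the vector library and at 15.7 and 13.4 under sgRNA1. ATF3 was at 129 CPM in the vector library and at 67.4 and 70.2 under sgRNA1. Each pair of sgRNA1 libraries lay close together.

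The test called 5 of 8 members lower under sgRNA1, where 4.11% of all genes were called lower. FOSB fell by 2.18 ± 0.19 on the log2 scale (SE, edgeR adjusted p = 4.25e-07), a 4.52-fold difference. ATF3 fell by 0.91 ± 0.14 (adjusted p = 0.000398), FOS by 0.80 ± 0.12 (adjusted p = 0.000165) and JUN by 0.66 ± 0.11 (adjusted p = 0.000672), from 440.5 CPM in the vector library to 277 and 282. JUNB fell by 0.54 ± 0.12 (adjusted p = 0.00938), from 383 CPM to 254 and 275, and without sgRNA1 replicate 1 this call was lost (-0.48, adjusted p = 0.118). HOOK2, which overlaps JUNB, was at 75.1 CPM in the vector library and at 62.9 to 65.4 under sgRNA1.

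FOSL1, FOSL2 and JUND did not pass the threshold. FOSL1 was at 127 CPM in the vector library and 113 and 114 under sgRNA1, a log2 difference of -0.16 ± 0.16 (SE, edgeR adjusted p = 0.615). FOSL2 was at 266 CPM against 241 and 245 (-0.13 ± 0.12, adjusted p = 0.591). JUND was at 95.2 CPM against 70.4 and 71.5 (-0.43 ± 0.15, adjusted p = 0.104), and it was called without wild-type replicate 1 (adjusted p = 0.0389) or 3 (adjusted p = 0.0361) and with only the vector and sgRNA1 libraries in the fit (-0.45, adjusted p = 4.28e-05). No member was called higher, where 4.62% of all genes were; the count was 0 at an unadjusted p under 0.05 and with DESeq2 and limma-voom. The members' median log2 difference was -0.60, beside 0.00 over all genes. In the fit with both libraries labelled knockout, none of the members was called by edgeR, with log2 differences as above, and FOSB alone had an unadjusted p under 0.05 (0.0318).

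The 2 ARID1A arms have no control library in common, so the difference between their effects was tested in the same fit. It was called positive for 7 of 8 members, where 5% of all genes tested were called positive and 4.02% negative. FOSB had the largest difference, 3.44 ± 0.30 (SE, edgeR adjusted p = 1.01e-06), followed by JUN with 1.66 ± 0.15 (adjusted p = 1.54e-06) and FOS with 1.65 ± 0.16 (adjusted p = 3.73e-06). JUNB gave 1.44, FOSL2 1.20, ATF3 1.11 and JUND 0.95. FOSL1, at 0.39 ± 0.27 (adjusted p = 0.412), was the member not called. The members' median was 1.32, beside -0.03 over all genes. The kind of library, by its ribosomal and mitochondrial content, cannot be told apart from the arm here. With the library labelled knockout replicate 2 included, the difference was called for none of the 8 members by edgeR, and all 8 had an unadjusted p under 0.05 (0.00038 to 0.0195). The differences themselves were then larger for 7 members, among them FOS (3.68), FOSB (5.82), JUN (3.28), JUNB (2.93), ATF3 (3.38) and FOSL1 (3.60), and for FOSL2 1.10.

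The largest differences in NUGC4 lay between the CRISPRi vector library and wild type, for every member except FOSL2, whose knockout difference of 1.07 exceeded its 0.83 here. FOSL1 was at 5.78, 8.23, 6.55 and 4.84 CPM in wild type and 127 in the vector library, a 19.5-fold difference (log2 4.29 ± 0.14, SE, edgeR adjusted p = 3.13e-13). FOSB was at 2.68, 4.24, 3.76 and 2.92 CPM in wild type and 65.7 in the vector library, 19.0-fold higher. FOS was 11.8-fold higher in the vector library, JUN 9.55-fold, ATF3 9.28-fold and JUNB 7.89-fold. FOSL2 and JUND stood apart with 1.78-fold and 1.80-fold.

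All 8 members were called higher in the vector library, where 23.5% of all genes were called higher and 20.7% lower, and the largest adjusted p was 7.44e-05, for JUND. The members' median was 3.24, beside -0.02 over all genes. The library labelled knockout replicate 2 gave similar levels, with FOS at 587 CPM, JUN at 476, FOSL1 at 132 and FOSB at 77.7. HOOK2 was also higher, at 75.1 CPM against 34.5 to 41.1. The antisense gene FOSL2-AS1, which overlaps FOSL2, had 92 counts in all over the 13 libraries. The vector and the wild-type libraries are the 2 kinds by ribosomal and mitochondrial content, so the vector and the library kind cannot be told apart. This comparison shares its wild-type libraries with the knockout comparison and its vector library with the CRISPRi comparison.

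With CTNNB1 overexpression in HepG2, 2 of the 8 members were called lower, where 11.4% of all 15703 genes tested were called lower. JUN was at 59.7 and 53.4 CPM in the vector libraries (56.5 ± 4.43, SD, n = 2) and at 29.4 and 34.7 under overexpression (32.0 ± 3.78, SD, n = 2). Its log2 difference was -0.85 ± 0.09 (SE, edgeR adjusted p = 3.67e-08). ATF3 was at 8.60 and 7.69 CPM and then at 4.01 and 3.68, a log2 difference of -1.11 ± 0.17 (adjusted p = 1.26e-05). Neither gene's groups overlapped, and the same held for FOSB and JUNB, which were not called.

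JUNB was at 11.2 and 7.98 CPM in the vector libraries and 6.78 and 7.71 under overexpression, a log2 difference of -0.41 ± 0.16 (SE, edgeR adjusted p = 0.0610). It was called without vector replicate 2 (-0.68, adjusted p = 0.00309) and without overexpression replicate 2 (-0.48, adjusted p = 0.0275). JUND, the most abundant member per kb in HepG2, was at 98.4 and 101 CPM and then 100.5 and 115 (0.07 ± 0.07, adjusted p = 0.470). FOSL2 was at 96.6 and 91.7 CPM and then 83.5 and 99.5 (-0.07 ± 0.07, adjusted p = 0.506), and FOSL1 at 7.66 and 7.39 and then 6.66 and 7.17 (-0.15 ± 0.15, adjusted p = 0.505).

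FOS and FOSB were close to the limit of detection in HepG2. FOS had 12 and 13 counts in the vector libraries and 16 and 20 under overexpression, and FOSB 14 and 12 and then 10 and 9, so changes of either were resolved poorly (0.08 ± 0.38 and -0.89 ± 0.45 log2, SE, adjusted p = 0.916 and 0.159 by edgeR). No member was called higher, where 12.8% of all genes were; the count was 0 at an unadjusted p under 0.05 and with DESeq2 and limma-voom. The members' median was -0.28, beside 0.00 over all genes. When all 13 libraries shared 1 fit and 1 estimate of spread, neither JUN (-0.82, adjusted p = 0.822) nor ATF3 (-1.08, adjusted p = 0.864) was called, at log2 differences close to those above. That fit also held the library labelled knockout replicate 2, in a group with knockout replicate 1. Their chi-square per degree of freedom was 278, so the shared spread includes that pair.

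Across the groups, the order of levels was shared by FOS, JUN, JUNB, FOSB and ATF3 at the top: the library labelled knockout replicate 2, the vector library, sgRNA1 and then knockout replicate 1. FOSL2 was the exception among the FOS genes, highest in knockout replicate 1. JUND was highest in the library labelled knockout replicate 2 and in HepG2, whose levels overlap, and lowest in wild-type NUGC4. For FOSL1, knockout replicate 1, wild type and both HepG2 groups lay within the wild-type range of 4.84 to 8.23 CPM. JUN in the HepG2 vector libraries lay above wild-type NUGC4, and under CTNNB1 overexpression below it. Such comparisons of HepG2 with wild type cross the kinds of library as well as the lines.

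Over the 8 NUGC4 libraries of the fit, log2 CPM of FOS, JUN and JUNB had pairwise Pearson r of 0.997 to 0.998, and FOSL2 had 0.655 with FOSL1 and 0.792 with JUN. These are descriptions, since the libraries fall into the 2 kinds named above. Of 11700 genes, the one most like FOS was DUSP1 (r = 0.998), a phosphatase that switches off MAP kinases and is an immediate early gene. DUSP1 was also the closest to JUN (r = 0.998), the chaperone gene DNAJB1 was closest to JUNB (r = 0.999), and CCN2, a secreted matrix protein gene, to FOSB (r = 0.988). KHSRP was closest to FOSL1, DDR1 to FOSL2 and the cell death gene BBC3 to JUND, the last with r = 0.968.

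Genes that act with or around AP-1 were counted in lists chosen with earlier results of these data known. Of 25 other immediate early genes tested, 23 were higher and 1 lower in the vector library than in wild type, and 16 were lower and 0 higher under sgRNA1 (1 higher at an unadjusted p under 0.05, 0 with DESeq2 and limma-voom). Knockout replicate 1 had 10 of them higher (40%) and 9 lower (36%). The shares over all genes tested were 23.5% higher and 20.7% lower in the vector library, 4.62% and 4.11% under sgRNA1, and 19.5% and 18.7% in knockout replicate 1, and the lists below are read against them. ARC, a neuronal activity gene, was at 58.8 CPM in the vector library and a mean of 6.62 under sgRNA1 (log2 -3.15 ± 0.21, SE, edgeR adjusted p = 2.19e-08), and EGR2 and EGR3, zinc finger factors, fell by 3.04 and 2.10. EGR3 was also lower in knockout replicate 1, at 1.70 CPM against a wild-type mean of 6.49, but 2.36 higher on the log2 scale, uncalled, with both libraries labelled knockout (adjusted p = 0.0761).

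Feedback genes of the MAP kinase pathway, which supply phosphatases and adaptor inhibitors, were higher for 11 (57.9%) and lower for 3 (15.8%) of 19 in knockout replicate 1, beside 19.5% and 18.7% of all genes. DUSP5 rose from a mean of 4.89 to 44.4 CPM, DUSP6 from 17.1 to 53.2 and SPRY4 from 19.0 to 55.1. The median log2 difference of the list was 0.46 in knockout replicate 1 and larger, 1.03, in the vector library against wild type. Under sgRNA1 3 were higher, among them DUSP5 (log2 1.04 ± 0.18, SE, edgeR adjusted p = 0.00101), and 5 lower, among them DUSP2 and DUSP1, which fell by 1.24 and 0.79. In HepG2 1 of 17 was higher and 9 were lower (52.9%, beside 11.4% of all genes), with IER3 at -1.20 and SPRY4 at -0.91. Of 31 upstream kinases, 9 were higher (29%) and 3 lower (9.68%) in knockout replicate 1, beside 19.5% and 18.7% of all genes. Under sgRNA1 2 were higher and 2 lower (6.45% each), near the 4.62% and 4.11% of all genes. RPS6KA5, a nuclear kinase of the stress and growth pathways, was lower in both (-1.27 and -1.08).

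Among 33 reported AP-1 targets tested, 24 were higher (72.7%) and 2 lower (6.06%) in knockout replicate 1, beside 19.5% and 18.7% of all genes. Under sgRNA1 8 were higher (24.2%, beside 4.62%) and 2 lower (6.06%, near the 4.11% of all genes). The fibronectin gene FN1 went from a wild-type mean of 1.45 to 489 CPM in knockout replicate 1 and from 19.9 to a mean of 1172 under sgRNA1, and the protease gene PLAU from 0.195 to 7.67 and from 1.92 to 5.61. In the vector library 23 targets were higher (69.7%, beside 23.5%) and 0 lower (0 at an unadjusted p under 0.05, and 0 with DESeq2 and limma-voom). HepG2 with CTNNB1 overexpression had 2 of 22 higher (9.09%, beside 12.8%) and 11 lower (50%, beside 11.4%), MT2A among them (123 to 19.8 CPM) and SPP1 (97.8 to 31.9 CPM).

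Of the 25 tested factors that share the leucine zipper fold with AP-1, knockout replicate 1 had 9 higher (36%, beside 19.5% of all genes) and 3 lower (12%, beside 18.7%), with MAFF (log2 2.31) and CEBPB (1.73) leading. Under sgRNA1 0 were higher and 2 lower (3 higher at an unadjusted p under 0.05, 0 with DESeq2, 1 with limma-voom). MAFF (2.15) and CEBPB (1.85) were also higher in the vector library than in wild type. The list's median log2 difference was 0.32 there, beside 0.14 in knockout replicate 1. HepG2 had 1 of the 25 higher and 10 lower (40%, beside 11.4%), among them JDP2, an inhibitor that binds AP-1 sites (-1.55 ± 0.15, SE, edgeR adjusted p = 1.33e-08), and ATF4, the effector of the integrated stress response (-0.91 ± 0.07, adjusted p = 5.16e-11). The 14 AP-1 turnover genes tested had a median log2 difference of -0.06 between the vector library and wild type, a comparison that crosses the kinds of library. COP1 was lower there (-0.96) and STUB1 higher (0.69). FBXW7, a ubiquitin ligase subunit that marks JUN for degradation, was lower in the vector library than in wild type (log2 -2.11 ± 0.13, SE). It was lower by less in knockout replicate 1 (-0.63 ± 0.12, adjusted p = 0.000399). Of 14 turnover genes 3 were higher (21.4%) and 1 lower (7.14%) there, beside 19.5% and 18.7% of all genes, and under sgRNA1 none was called in either direction (0 at an unadjusted p under 0.05 and with DESeq2 and limma-voom). Of 18 promoter factors, such as SRF and CREB1, 3 were higher and 3 lower in knockout replicate 1 (16.7% each, under the shares of all genes). In the vector library 8 were higher (44.4%, beside 23.5%) and 3 lower (16.7%, beside 20.7%).

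**Figure D1:**
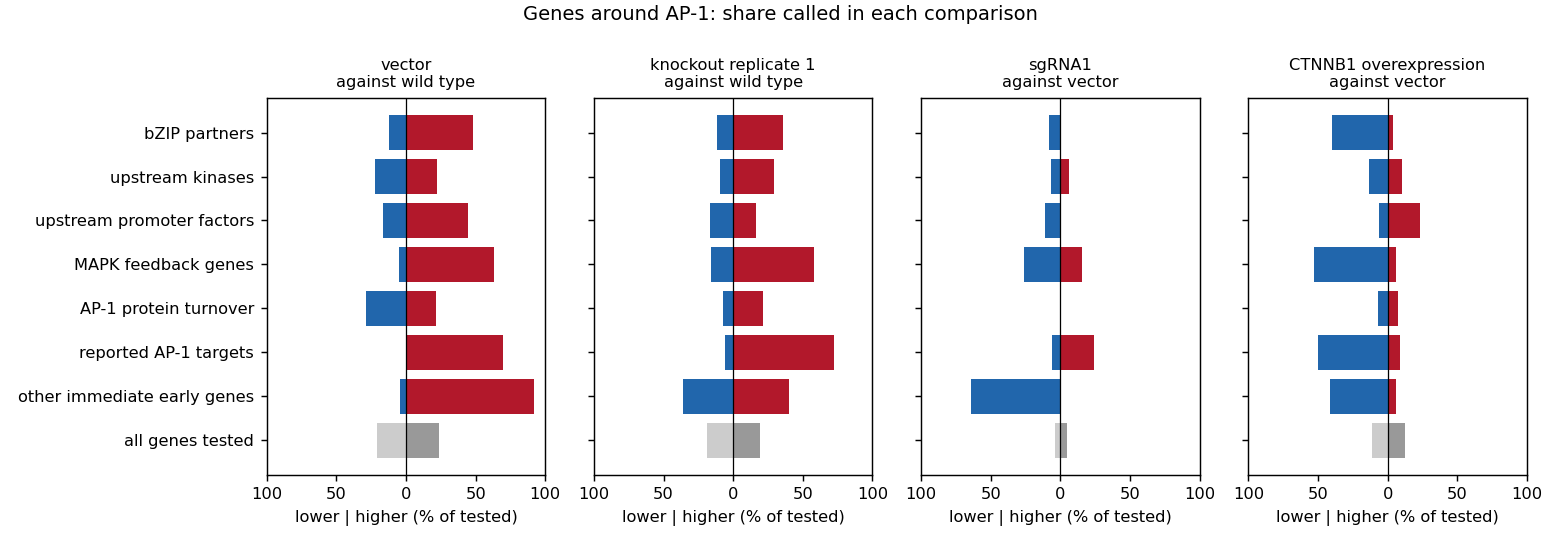
Bars give, for 7 gene lists and for all genes tested (grey), the share (%) called higher to the right of 0 and lower to the left in each of 4 comparisons. Other immediate early genes reach 92% higher in the vector library and 64% lower under sgRNA1, and reported AP-1 targets 72.7% higher in knockout replicate 1.

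Promoter windows with a TRE or a CRE were also counted over all genes. Of 902 tested genes with TGANTCA in the window, 26.9% were higher and 19.3% lower in knockout replicate 1, beside 22.6% and 18.4% of the 12444 genes with any window. Under sgRNA1 they were 7.76% higher beside 5.42% and 4.66% lower beside 4.31%, and in the vector library 26.3% beside 27.1% and 15.6% beside 17.4%. Of 433 genes with TGACGTCA, 36.3% were higher in the vector library beside 27.1% of those with any window, and 14.8% lower beside 17.4%. In knockout replicate 1 they were 24.5% higher beside 22.6% and 15.9% lower beside 18.4%, and under sgRNA1 3.46% beside 5.42% and 3% beside 4.31%. In HepG2, 13.7% of genes with TGANTCA and 12.5% of those with TGACGTCA were higher, beside 13.8%, and 13.3% and 11% lower, beside 11.9%. These shares describe letters in a window and not binding.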

How the data were processed

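The authors deposited whole-number read counts per gene symbol, for poly(A) RNA per the labels' protocols. The aligner was STAR 2.7.10a and the build hg38, per the submitters' processing notes. Counter, annotation and strandedness were not given in the sources used here, so overlapping genes are uncertain. Of 14 columns, 13 were matched to samples by name. The column left matches no sample and was not used, and the second CRISPRi vector sample of the labels has no matched column, so whether that column holds it is not known.

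Counts were tested in R 4.3.3 with edgeR 4.0.16 (quasi-likelihood, TMM, filterByExpr, Benjamini-Hochberg over all genes, adjusted p under 0.05). The NUGC4 fit held 8 libraries with 4 residual degrees of freedom and left out the library labelled knockout replicate 2, and the HepG2 fit held 4 libraries with 2. On simulated counts for sgRNA1 against vector (17796 genes), 86 of 100 genes changed 2-fold were recovered, and 19 unchanged genes were called. The changed genes had a mean above 5 CPM, and smaller changes were not simulated. The counts were drawn with the spread fitted here, so the spread borrowed for the single vector library was not tested. Exon lengths came from GENCODE. Alternatives were DESeq2 1.42.0, its size factors, limma-voom (3.58.1), no filter, a fold threshold, a replicate block, other sets of libraries and leaving out each library. The text names the members, the targeted genes, up to 3 of the most changed called genes per list with at least 5 CPM and no overlap, and the genes most correlated with each member. The members and lists were chosen with earlier results of these data known.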

Additional observations from a re-analysis of the deposited data

Results flagged for a closer look

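Of 8 sets of 4 wild-type values, 1 per member, 1 held a library apart from the rest: JUND was at 41.7 CPM in wild-type replicate 1 and at 54.6 to 56.2 in the other 3. Chance marks about 1 in 20 such sets. JUND in knockout replicate 1, at 75.0 CPM, was above all 4.

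The effect of knockout replicate 1 differed from that of sgRNA1 for 7 members by the test of the difference itself, in log2: 1.65 for FOS, 3.44 for FOSB, 1.20 for FOSL2, 1.66 for JUN, 1.44 for JUNB, 0.95 for JUND and 1.11 for ATF3. FOS, FOSB, JUN and JUNB were called in opposite directions by the 2 arms, FOSL2 and JUND in the knockout alone and ATF3 under sgRNA1 alone. The ARID1A effects themselves differed by -0.50 ± 0.18 (SE, edgeR adjusted p = 0.0930).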

How the results depend on the processing

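Of 558 values of members under an alternative, 518 kept their direction and their side of the threshold. With both libraries labelled knockout in the group, 1870 genes were lower in the knockout; sgRNA1 against vector gave 0 members lower and 0 genes in either direction; the vector against wild type gave 1480 genes higher and 1034 lower; and the difference between the arms gave 0 members and 3 genes positive and 0 negative. With a fold threshold of 1 on the log2 scale, the knockout had 3 members and 1450 genes higher and 1888 lower; sgRNA1 had 1 member lower and 311 genes higher and 332 lower; the vector had 1467 genes higher and 2385 lower; the difference had 517 positive and 477 negative; and HepG2 had 1 member lower and 179 genes higher and 250 lower. The fits as reported had 3682 genes higher and 3546 lower in the knockout, 874 and 778 under sgRNA1, 4441 and 3914 in the vector, 945 and 761 for the difference, and 2014 and 1790 in HepG2. DESeq2 called 1121 genes higher and 1071 lower in HepG2. In the fit of only the vector and sgRNA1 libraries, given next, the 2 sgRNA1 libraries were the only replicates. With only the compared groups, sgRNA1 had 2184 genes higher and 1966 lower, and JUND was called lower (-0.45, adjusted p = 4.28e-05). With all libraries in 1 fit, the library labelled knockout replicate 2 among them, HepG2 had 0 members lower and 40 genes higher and 77 lower. The causes were not tested.

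Deviations of same-numbered libraries from their group means correlated at 0.128 and 0.073 between wild type and sgRNA1 and at -0.31 in HepG2. In a group of 2 libraries the deviations mirror each other, so these values cannot settle whether libraries were paired. A block for the replicate number took up most of the 4 residual degrees of freedom of the NUGC4 fit. With the replicate number as a block, sgRNA1 had 2251 genes higher and 1698 lower and the difference 2149 and 1856, and JUND was called lower under sgRNA1 (adjusted p = 2.88e-07). A crossed replicate block in HepG2, chosen after seeing the data, gave 2807 genes lower and JUNB called (adjusted p = 0.00564). Without a filter, JUND under sgRNA1 (adjusted p = 0.0459) and JUNB in HepG2 (adjusted p = 0.0428) were called.

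Leaving out each library in turn gave 421 to 1320 genes higher and 327 to 1098 lower under sgRNA1, 466 to 1374 and 349 to 1192 for the difference, and 1212 to 1942 and 1191 to 1615 in HepG2; members lower ranged from 4 to 6 under sgRNA1 and 2 to 3 in HepG2. The counts moved by over 1.5 times without sgRNA1 replicate 1 (443 and 387 genes) or 2 (421 and 327), without wild-type replicate 3 (1320 higher; 1192 negative for the difference) and without HepG2 vector replicate 1 (1212 and 1191). Directions that reversed were not called in HepG2: leaving out 1 library gave FOS -0.17 (without vector replicate 2) to 0.27, FOSL2 -0.19 to 0.027 (without overexpression replicate 1), JUND -0.0060 (without overexpression replicate 2) to 0.15, and ARID1A -0.045 to 0.025 (without overexpression replicate 1; 0.014 without vector replicate 2), and ARID1A was at 0.022 with all libraries. With both libraries labelled knockout, EGR3 in the knockout reversed to 2.36, CTNNB1 to -0.16, and in the difference ARID1A to 0.83 and CTNNB1 to -0.14. Depth limits FOS and FOSB in HepG2, with 9 to 20 counts per library.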
